A study of Mus musculus with 6 samples.

Results

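*Impg2*, *Dppa4*, *Hydin*, *Acbd4*, *Dph7*, *Rnf5*, *Aspg*, *Tas1r3*, *Szrd1*, and *Commd8* are 10 of the 20630 gene symbols on a whole-genome mouse array. They were chosen by their measured values, as genes with a probe that separates the *ob/ob* samples from the control samples and that belong to no pathway the study set out to measure. That separation is therefore what selected them. It is described below with no test and supports nothing by itself. All 16 probes whose RefSeq accession belongs to these genes are shown, so that the probes of 1 gene can be compared with each other.

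RNA came from interscapular brown adipose tissue (iBAT) of 3 control samples and 3 *ob/ob* samples, 1 array each. Both groups were male mice on a C57BL/6 background. The *ob/ob* mice were 16 weeks old, the labels give the same age for the controls, and they differ in genotype, since *ob/ob* mice carry a mutated leptin gene in every cell and become obese. The labels do not say whether each sample is 1 mouse or a pool, so the spread between samples may be partly technical.

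Brown adipose tissue burns fatty acids in mitochondria that carry the uncoupling protein UCP1, and it is known for heat production rather than for the roles of most of these genes. *Impg2* encodes a proteoglycan of the matrix around retinal photoreceptors, *Hydin* a part of the central apparatus of motile cilia, *Dppa4* a chromatin protein of pluripotent cells and early germ cells, and *Tas1r3* a subunit of the sweet and umami taste receptors. The others act inside many cell types. ACBD4 binds long-chain acyl-CoA and tethers peroxisomes to the ER, DPH7 takes part in making diphthamide (a modified histidine of elongation factor 2), RNF5 is a ubiquitin ligase of the ER membrane, ASPG is an asparaginase and lysophospholipase, COMMD8 belongs to a complex that returns membrane proteins from endosomes to the cell surface, and SZRD1 is a small protein with a SUZ RNA-binding domain.

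The arrays did not fall into their labeled groups over all probes, and the values below have to be read with that in view. The Spearman correlation of control 3 across probes was 0.915 and 0.944 to *ob/ob* 1 and 2, but 0.642 and 0.730 to its own group's samples. For *ob/ob* 3 it was 0.858 to control 1, but 0.573 and 0.488 to its own group's samples. On each array, 83.5% to 89.9% of spots lay well above background. *Lep* itself, whose *ob/ob* mutation does not remove the transcript and so does not check the labels, read 5.74, 4.57, and 5.30 in control 1 to 3 and 6.68, 5.83, and 9.33 in *ob/ob* 1 to 3 (normalized log2 signal). All 10 markers of brown adipocytes were measured, with *Ucp1* detected on all 6 arrays, and 8 of them had a lower mean in *ob/ob* samples. Their summed signal was 6221 to 91020 in controls and 4273 to 12455 in *ob/ob* samples. The sum of 10 skeletal muscle markers was 4645 to 62328 and 688 to 148930, and that of 9 macrophage markers 4444 to 15387 and 3715 to 5352. The macrophage sum was carried by *Itgam*, while 7 of the 9 had a higher mean in *ob/ob* samples, with a median difference of 0.56. Of the 9, 3 were higher without overlap between the groups, against 3.74% of all tested probes in that direction. Nothing is read from these marker counts. The sum of 7 erythrocyte markers was 3776 to 29495 and 4672 to 74383, and that of 8 endothelial markers 6608 to 10786 and 4196 to 6463. In bulk tissue, fewer cells of a type and less RNA per cell cannot be told apart.

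RefSeq holds the promoters of 7 of these genes in the table used here, and those of *Impg2*, *Hydin*, *Dph7*, and *Commd8* are printed as examples. The separating probes of the first 3 genes were lower in *ob/ob* samples and that of *Commd8* was higher. That direction comes from the contrast that selected the probes, so nothing about regulation is read from comparing these promoters. Each is the 250 bases before the gene's start, 5′ to 3′ on the gene's strand, from assembly GRCm38.p6, with motif matches in capitals. The positions are chr16:56204063-56204312 (plus strand) for *Impg2*, chr8:110266727-110266976 (plus strand) for *Hydin*, chr2:24962172-24962421 (plus strand) for *Dph7*, and chr5:72168190-72168439 (minus strand) for *Commd8*.
Impg2: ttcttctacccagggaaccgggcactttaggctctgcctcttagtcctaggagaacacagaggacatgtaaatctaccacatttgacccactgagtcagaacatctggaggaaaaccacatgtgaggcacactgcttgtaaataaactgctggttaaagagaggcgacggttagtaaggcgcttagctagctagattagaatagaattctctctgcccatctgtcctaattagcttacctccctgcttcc
Hydin: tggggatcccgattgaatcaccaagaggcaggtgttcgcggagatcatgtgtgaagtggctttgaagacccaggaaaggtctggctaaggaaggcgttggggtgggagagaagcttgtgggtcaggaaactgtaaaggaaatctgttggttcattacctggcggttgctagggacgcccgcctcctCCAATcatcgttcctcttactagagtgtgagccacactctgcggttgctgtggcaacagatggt
Dph7: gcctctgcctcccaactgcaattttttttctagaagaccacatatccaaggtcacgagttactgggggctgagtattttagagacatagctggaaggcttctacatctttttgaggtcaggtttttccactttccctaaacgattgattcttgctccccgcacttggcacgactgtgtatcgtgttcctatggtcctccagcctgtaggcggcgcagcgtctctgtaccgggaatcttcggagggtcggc
Commd8: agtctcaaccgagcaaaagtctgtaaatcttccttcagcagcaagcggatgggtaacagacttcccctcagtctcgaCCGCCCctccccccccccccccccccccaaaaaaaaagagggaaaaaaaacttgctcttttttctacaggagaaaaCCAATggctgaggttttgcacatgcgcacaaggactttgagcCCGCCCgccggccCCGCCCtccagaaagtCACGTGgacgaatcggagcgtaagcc

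The motifs searched on both strands were the TATA box TATAAA (in 13% of the 27025 promoters of the table), the CCAAT box CCAAT (34.5%), the GC box GGGCGG (32.9%), the cAMP response element TGACGTCA (1.62%), the E-box CACGTG (6.05%), and the DR1 element, a direct repeat bound by PPAR (0.037%). No match overlapped another in the printed sequences. *Commd8* held 5 matches, namely a CCAAT box that begins 97 bases before the start, GC boxes on the opposite strand at 173, 55, and 42 bases, and an E-box at 26 bases. *Hydin* held 1, a CCAAT box at 64 bases. *Impg2*, *Dph7*, and *Tas1r3* held none of these letters, and *Aspg* and *Szrd1* each held 1 GC box on the opposite strand, at 62 and 21 bases. No TATA box, cAMP response element, or DR1 element was found in the 7 windows. G and C made up 46.8% of the *Impg2* promoter and 60.4% of that of *Szrd1*, the lowest and highest of the 7, against a median of 52% over the table. CpG pairs ranged from 2 (*Aspg*) to 17 (*Szrd1*), against a median of 6. No motif of this search was common to the printed promoters of the lower genes.

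Signals are given as normalized log2 units, in which 1 unit is a 2-fold difference, and a difference is always *ob/ob* minus control. A probe was called detected where its spot lay well above background. Of the 16 probes, 15 were detected on at least 3 arrays and entered the fit over all probes, and 12 were detected on all 6. The groups did not overlap for 10 probes, 1 of each gene, with 8 lower and 2 higher in *ob/ob* samples. Over all 35448 probes in the fit, the groups did not overlap for 4.19% in the lower direction and 3.74% in the higher direction. Limma called 0% of them at an adjusted p below the threshold in either direction, with a lowest adjusted p of 0.154, against 1245 probes at an unadjusted p below that threshold and 1512 by the methods' t-test. Of the 10 probes with the lowest unadjusted p in that fit, 7 belonged to these genes. The separating probes of *Aspg*, *Tas1r3*, and *Szrd1* came at ranks 118, 125, and 604 of the 35448 by that p.

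**Figure D1:**
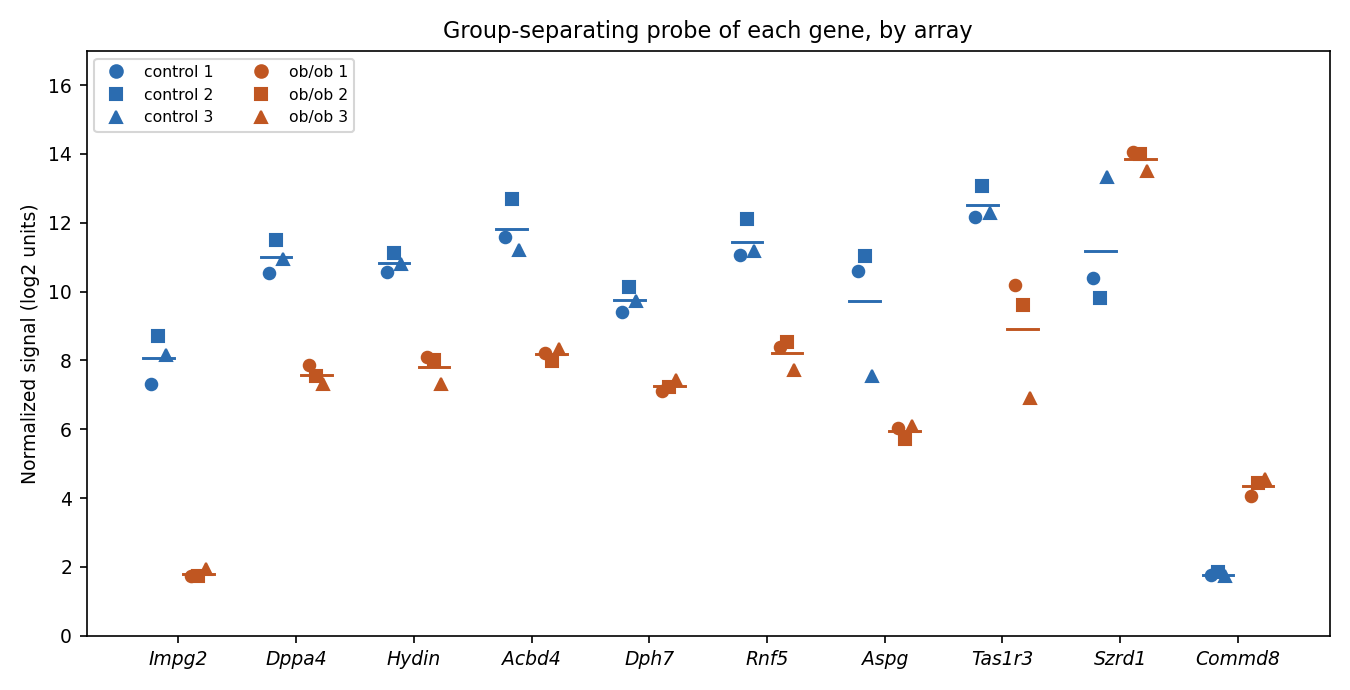
Normalized signal (log2 units, vertical axis) of the group-separating probe of each of the 10 genes on each array, with controls in blue, *ob/ob* in orange, the replicate given by the symbol, and group means as lines. For *Impg2* through *Tas1r3* all 3 *ob/ob* points lie below all 3 control points, and for *Szrd1* and *Commd8* they lie above.

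Among the genes known from other tissues, *Impg2* had the widest measured gap between the groups, but this ranking depended on background correction. Its single probe read 7.33, 8.71, and 8.16 in control 1 to 3 and 1.75, 1.73, and 1.94 in *ob/ob* 1 to 3. All controls lay above all *ob/ob* samples, and the probe was well above background on the 3 control arrays and on none of the *ob/ob* arrays. The means were 8.07 ± 0.70 in controls and 1.80 ± 0.12 in *ob/ob* samples (SD, n = 3 each). The *ob/ob* level is not known, because the probe was not well above background there. With each *ob/ob* array set at the lowest normalized signal of any probe well above background on it, the signal was 16.5-fold lower. That floor is the lowest such level, so 16.5-fold is not a lower bound on the difference. With normexp, another background correction, the measured difference was −2.48. That was smaller than for the separating probes of *Tas1r3* (−3.29), *Dppa4* (−3.03), and *Hydin* (−2.71) with normexp. Before normalization, the spot intensities were 281, 559, and 151 in controls and 2.90, 5.25, and 1.36 in *ob/ob* samples, so the separation was already present in the unnormalized intensities.

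*Dppa4* had 3 probes, and they did not show the same difference. Its first probe read 10.55, 11.51, and 10.94 in control 1 to 3 and 7.86, 7.55, and 7.32 in *ob/ob* 1 to 3. This put every control at least 2.70 log2 units above every *ob/ob* sample, with means of 11.002 ± 0.48 and 7.58 ± 0.27 (SD, n = 3 each), a difference of −3.42 and a signal 10.7-fold lower. The second probe read 5.79, 6.30, and 6.65 in controls and 6.07, 6.25, and 5.04 in *ob/ob* samples, and the last read 4.99, 5.16, and 5.80 against 5.06, 5.13, and 4.27. On both of these the groups overlapped, with differences of −0.46 and −0.50. Those differences were 0.11 and 0.02 without control 3 and *ob/ob* 3. Both probes were dim, and the last was detected on 5 arrays, 2 of them *ob/ob*. A fall as large as on the first probe would not have left either well above background, so its size could not have been read. The second and the last probe followed each other over the 6 arrays (r = 0.96) more closely than either followed the first (r = 0.54 and 0.60).

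*Hydin* had 2 probes, and they too did not show the same difference. The first read 10.58, 11.12, and 10.79 in control 1 to 3 and 8.09, 8.01, and 7.30 in *ob/ob* 1 to 3. The groups lay at least 2.50 log2 units apart, with means of 10.83 ± 0.27 and 7.80 ± 0.43 (SD, n = 3 each) and a difference of −3.03 (8.16-fold lower). The second probe, also detected on all 6 arrays, read 5.32, 5.15, and 5.34 in controls and 5.34, 5.26, and 4.67 in *ob/ob* samples. Its groups overlapped, and its difference was −0.18. This probe was dim in controls. A fall as large as on the first probe would not have left it well above background, so its size could not have been read.

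*Tas1r3*, with 1 probe, was bright on every control array and uneven among the *ob/ob* arrays. It read 12.18, 13.07, and 12.27 in control 1 to 3 and 10.19, 9.62, and 6.92 in *ob/ob* 1 to 3. All *ob/ob* samples were at least 1.99 log2 units below all controls, but *ob/ob* 3 lay well below *ob/ob* 1 and 2, with a distance to their mean of −2.99 units. The means were 12.51 ± 0.49 and 8.91 ± 1.75 (SD, n = 3 each), a difference of −3.60, which was −2.60 without *ob/ob* 3.

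Of the genes that act inside many cell types, *Acbd4* had 2 probes that were both lower in *ob/ob* samples. The first read 11.59, 12.70, and 11.21 in control 1 to 3 and 8.22, 7.99, and 8.32 in *ob/ob* 1 to 3. The groups lay at least 2.88 log2 units apart, with means of 11.83 ± 0.77 and 8.18 ± 0.17 (SD, n = 3 each) and a difference of −3.66 (12.6-fold lower). The second read 10.78, 10.43, and 7.66 in controls and 7.59, 6.76, and 8.76 in *ob/ob* samples, with a difference of −1.92. Here control 3 lay among the *ob/ob* samples and *ob/ob* 3 lay above it, so the groups overlapped. Without these 2 arrays the difference was −3.43 on the second probe and −4.04 on the first.

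*Dph7* showed little spread within either group. Its first probe read 9.39, 10.13, and 9.74 in control 1 to 3 and 7.12, 7.22, and 7.43 in *ob/ob* 1 to 3. No array of either group stood apart, and the means of 9.75 ± 0.37 and 7.26 ± 0.16 (SD, n = 3 each) differed by −2.50 (5.64-fold lower). A second *Dph7* probe was not well above background on any array, so it could neither share nor contradict this difference.

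*Rnf5* and *Aspg* had 1 probe each. *Rnf5* read 11.07, 12.12, and 11.17 in control 1 to 3 and 8.39, 8.52, and 7.72 in *ob/ob* 1 to 3, at least 2.55 log2 units apart, with means of 11.45 ± 0.58 and 8.21 ± 0.43 (SD, n = 3 each) and a difference of −3.24 (9.46-fold lower). *Aspg* read 10.59, 11.04, and 7.56 in controls and 6.03, 5.71, and 6.10 in *ob/ob* samples. Its *ob/ob* samples were all lower, but control 3 lay well below control 1 and 2, with a distance to their mean of −3.25 log2 units. The *Aspg* means were therefore 9.73 ± 1.89 and 5.94 ± 0.21 (SD, n = 3 each), and the difference of −3.78 became −4.87 without control 3.

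*Szrd1* and *Commd8* were the genes with higher probes in *ob/ob* samples, and both carried a limit. *Szrd1*, with 1 probe, read 10.40, 9.81, and 13.32 in control 1 to 3 and 14.07, 13.99, and 13.50 in *ob/ob* 1 to 3. Control 3 lay only 0.18 below the lowest *ob/ob* sample, and the groups overlapped when each array was scaled to its 75th percentile and not quantile normalized. The means were 11.18 ± 1.88 and 13.85 ± 0.31 (SD, n = 3 each), with a difference of 2.68 and of 3.75 without control 3.

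For *Commd8*, 1 of 2 probes separated the groups. That probe was not well above background in controls, so whether the 2 probes disagree cannot be told. The separating probe read 1.76, 1.84, and 1.73 in control 1 to 3 and 4.07, 4.43, and 4.56 in *ob/ob* 1 to 3, and it was well above background on the *ob/ob* arrays only. The measured means were 1.78 ± 0.05 and 4.35 ± 0.26 (SD, n = 3 each). With the controls set at the lowest such level, as for *Impg2*, the signal was 1.36-fold higher in *ob/ob* samples, which again is not a lower bound. The other probe, detected on all 6 arrays, read 8.07, 7.93, and 8.12 in controls and 7.85, 7.22, and 8.89 in *ob/ob* samples, with overlapping groups and a difference of −0.05.

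**Figure D2:**
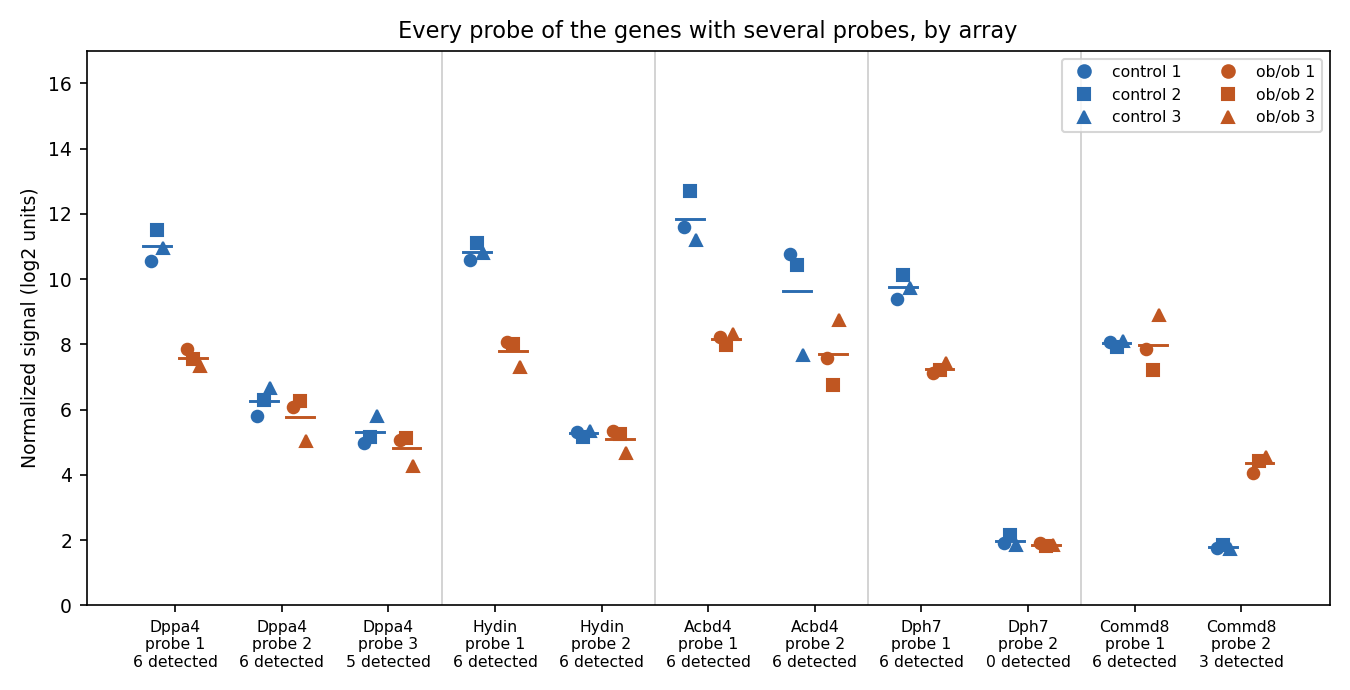
Normalized signal (log2 units, vertical axis) of all 11 probes of the 5 genes with several probes, by array, with colors and symbols for group and replicate, group means as lines, and the number of arrays on which each probe was detected under its name. In each gene 1 probe separates the groups, while the groups overlap on the other probes. Levels of different probes are not comparable with each other.

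Across the 5 genes with several probes, none had all its probes separated. Of the 6 probes beside the separating ones, the *Dph7* probe was undetected and not tested. Of the 5 tested, 4 had differences under 1 log2 unit, the second *Acbd4* probe being the exception. The differences of a gene's tested probes spanned 2.96 log2 units in *Dppa4*, 2.85 in *Hydin*, and 1.74 in *Acbd4*. No span is given for *Commd8*, whose separating probe was not well above background in controls. Over all 4726 genes with several tested probes the median span was 0.48, and 4.32% of them spanned at least 2 units. The span is wide here partly by construction, because 1 probe of each gene was selected for a large difference. In *Dppa4* and *Hydin* the other probes were also dim, so the spans there depend on signal near the detection floor. Which transcripts each probe reaches was not tested.

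Where control 3 and *ob/ob* 3 lay within their groups is described next for the group-separating probes. Control 3 lay within 1 log2 unit of the mean of control 1 and 2 for 8 of the 10 probes, *Aspg* and *Szrd1* being the others, against 61.0% of all probes. *Ob/ob* 3 lay within 1 unit of the mean of *ob/ob* 1 and 2 for 9 of the 10, *Tas1r3* being the other, against 41.3% of all probes. Both held for 7 of the 10 and for 36.6% of all probes. Small spread within the groups is part of what selected these probes, and nothing is read from these shares.

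**Figure D3:**
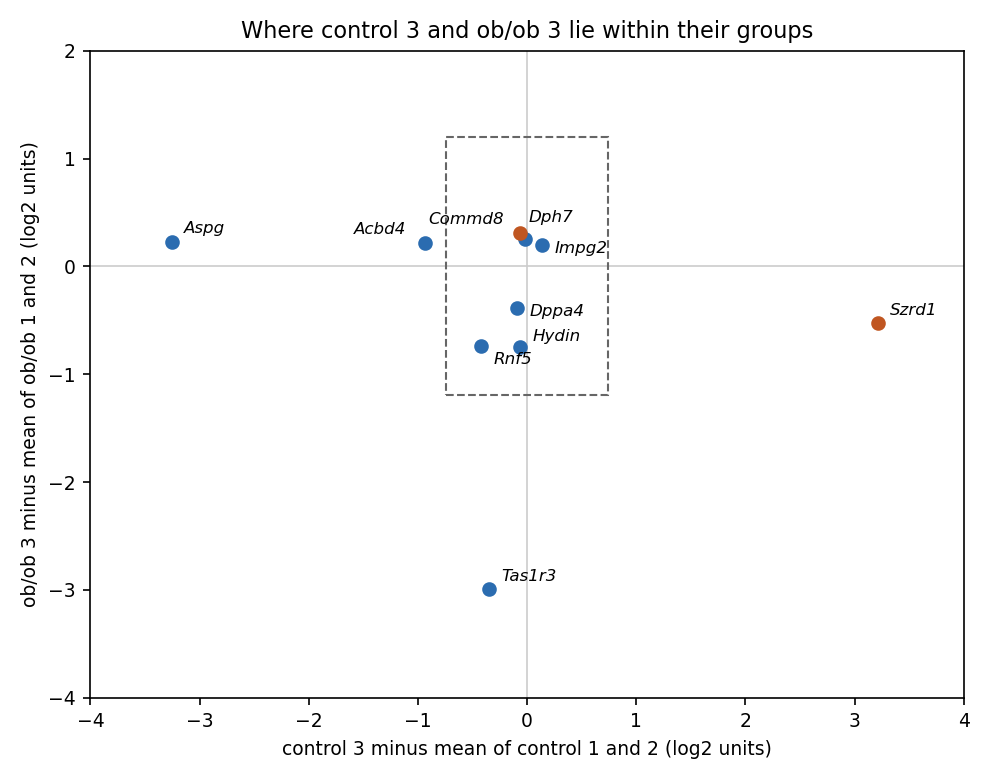
Distance of control 3 from the mean of control 1 and 2 (horizontal axis, log2 units) and of *ob/ob* 3 from the mean of *ob/ob* 1 and 2 (vertical axis, log2 units) for the group-separating probe of each gene, lower genes in blue and higher genes in orange. The dashed box marks the median absolute distances over all 35448 probes (0.74 and 1.20). *Aspg*, *Szrd1*, and *Tas1r3* lie far outside it, *Acbd4* just outside, and the other 6 inside.

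The separating probes kept the sign of their difference in every alternative run on them, while differences near 0 on the other probes did not all keep theirs. With arrays left out, and within the shared scan, that sign was fixed by selecting probes without overlap, so nothing is read from it. Within the 1 scan that held both groups (control 1, control 3, and *ob/ob* 1), the difference of the separating probes ranged from −3.19 (*Acbd4*) to −2.04 (*Tas1r3*) for the 7 lower genes other than *Impg2* and was 2.21 for *Szrd1*. *Impg2* on *ob/ob* 1 and *Commd8* on control 1 and 3 were not well above background, so no size is given for them in that scan. The groups and the other scans cannot be told apart, since each of those held 1 array. The dim values of *Impg2* and *Commd8* depended most on background correction. With normexp the measured *Impg2* difference was −2.48 in place of −6.26, and the measured *Commd8* difference was 0.49 in place of 2.58, none of which is a size of change, since 1 group was not well above background. The other lower genes ranged from −3.38 (*Acbd4*) to −2.11 (*Dph7*) with normexp.

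**Figure D4:**
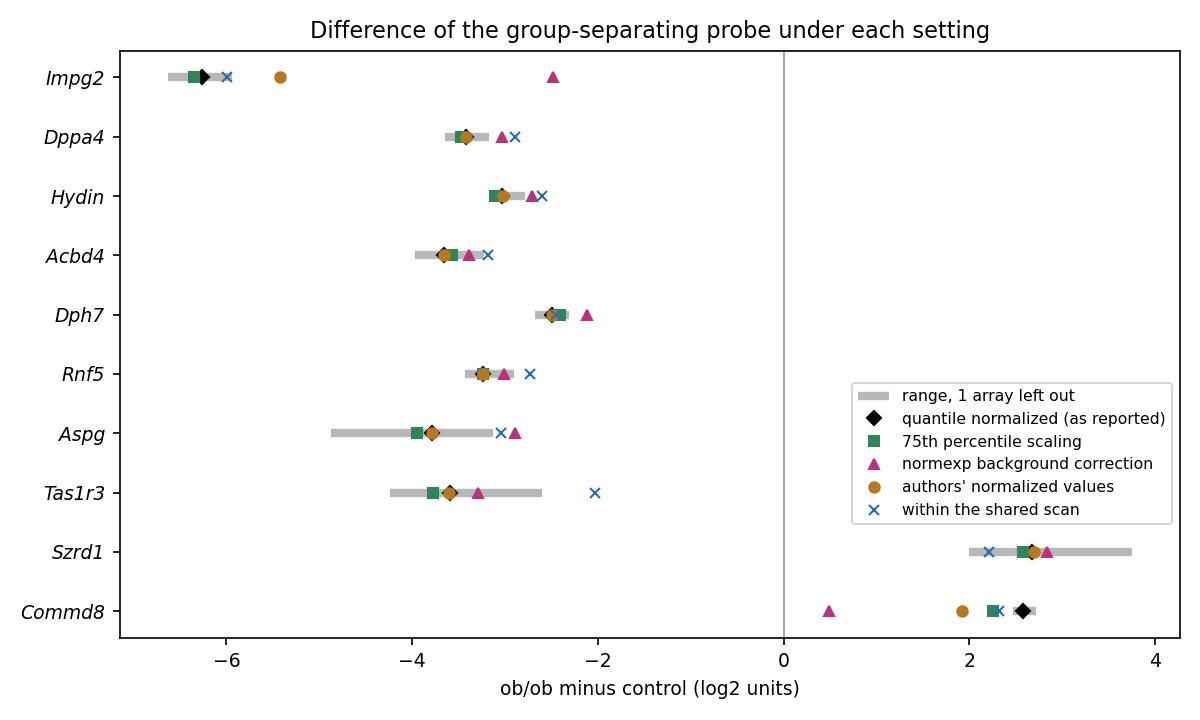
Difference between *ob/ob* and control (horizontal axis, log2 units) of the group-separating probe of each gene under 5 ways of processing (symbols) and with each array left out in turn (gray bars, lowest to highest). No value crosses 0, which for the gray bars and the shared scan follows from selecting probes without overlap. The values of *Impg2* and *Commd8* spread most between background corrections. For these 2 genes the values are measured differences against a group not well above background.

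The 10 separating probes were also compared with each other over the 6 arrays, as a description of probes that were all selected on these arrays. The absolute correlation of the 45 pairs ranged from 0.66 to 0.998, which the shared group difference sets. After each group's mean was removed, the median absolute correlation was 0.37, and 3 pairs exceeded 0.9. These were *Impg2* with *Dph7* (r = 0.95, with the *ob/ob* values of *Impg2* not well above background), *Hydin* with *Tas1r3* (r = 0.95), and *Aspg* with *Szrd1* (r = −0.99). The last pair mirrored each other at control 3, which was low for *Aspg* and high for *Szrd1*. Among genes detected on all 6 arrays and represented by their brightest probe, *Smarcc2*, a subunit of the BAF chromatin remodeling complex, had the profile most like those of *Dppa4*, *Hydin*, and *Rnf5* (r = 0.995, 0.997, and 0.995 over 6 arrays, 15883 genes compared). *Smarcc2* read 8.69, 9.25, and 8.98 in control 1 to 3 and 7.00, 7.10, and 6.67 in *ob/ob* 1 to 3. *Pfkl*, the liver-type phosphofructokinase of glycolysis, was most like *Aspg* (r = 0.999), and it too was lower in control 3 (6.90) than in control 1 and 2 (7.70 and 7.81). For *Tas1r3* the nearest profile was that of *Mapk11*, a p38 kinase (r = 0.995), whose *ob/ob* 3 value of 6.12 also lay below those of *ob/ob* 1 and 2 (7.93 and 7.91). *Szrd1* was nearest to *Cenpk*, a centromere protein gene (r = 0.998, difference 0.76), *Acbd4* to *Scaf4* (r = 0.995, difference −0.58), *Commd8* to the olfactory receptor gene *Olfr450* (r = 0.990, difference 0.65), *Dph7* to *Gm10731* (r = 0.990, difference −3.09), and *Impg2* to *Dph7* (r = 0.998), where the profiles of *Commd8* and *Impg2* include values not well above background. Between 23 genes (*Commd8*) and 207 genes (*Szrd1*) had an r above 0.95 with a member, so a near match over 6 arrays is not rare.

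Genes that share a known role with these 10 were measured as well, and the choice of members did not use them. The 10 lists held 122 genes, of which 117 were on the array and 111 were tested, each by its brightest detected probe. None passed limma's adjusted p. At an unadjusted p below the threshold with at least a 2-fold difference, 2 of the 111 (1.80%) were lower and 0 were higher, against 1.5% lower and 1.69% higher over all 19011 genes tested. The differences were evenly split, 56 below 0 and 55 above, with a median of −0.01 against −0.09 over all genes. In these counts the related genes lay close to the rest of the array.

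The ER-associated degradation list, which holds partners of RNF5, had 13 of 20 genes below 0 and a median of −0.33. *Ube2g2*, a ubiquitin-conjugating enzyme of this pathway, read 11.68, 12.23, and 11.74 in control 1 to 3 and 10.11, 10.07, and 8.90 in *ob/ob* 1 to 3. Its groups did not overlap, and the difference of −2.19 (SE 0.45) had an unadjusted p of 0.0024 and an adjusted p of 1.0 in limma. In the COMMD and retriever list (14 genes, median 0.18), *Commd9*, another subunit of the complex of COMMD8, read 10.86, 10.71, and 9.10 in controls and 9.12, 9.08, and 7.67 in *ob/ob* samples. Control 3 lay among the *ob/ob* samples there, and the difference was −1.60 (SE 0.65, unadjusted p of 0.048 in limma, adjusted p of 1.0).

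No other list had a gene past the unadjusted p and 2-fold rule. The acyl-CoA binding list had 6 of 7 genes below 0, with a median of −0.30 and a range of −0.44 to 0.55, the largest being *Acbd3*, a Golgi protein. Of the 7 diphthamide genes, 3 were below 0, and the list's median was 0.08, against −2.50 for the separating *Dph7* probe. Asparagine and aspartate enzymes had 7 of 10 above 0, with a median of 0.30. In the motile cilium list 10 of 16 were below 0 (median −0.10, lowest −1.37 in *Rfx3*, a ciliogenesis factor). Photoreceptor genes had 9 of 14 above 0 (median 0.10), taste signaling genes 5 of 9 below 0 (median −0.13), and pluripotency and germ line genes 7 of 11 above 0 (median 0.26). The lowest photoreceptor gene was *Rom1*, a membrane protein of outer segment discs, which read 9.57, 9.33, and 6.33 in controls and 5.89, 5.36, and 7.81 in *ob/ob* samples, with overlapping groups and a difference of −2.06 (SE 1.06). Among the genes with the largest difference of their list, *Dph3*, an electron carrier for diphthamide synthesis, differed by 0.77 (SE 0.34), *Glul*, the glutamine synthetase, by −0.70 (SE 1.34), *Gng13*, a G protein subunit of taste cells, by 1.18 (SE 1.18), *Tdgf1*, a Nodal coreceptor of early embryos, by 1.83 (SE 1.46), and *Commd2* by 1.66 (SE 1.70). Each of these had a limma adjusted p of 1.0, and of them only *Dph3* had groups that did not overlap. Over all lists, the groups did not overlap for 7 of the 111 genes tested. Over all probes in the fit the shares were 4.19% in the lower and 3.74% in the higher direction. Nothing is read from that count. The 3 genes of the SUZ domain list had a median of 0.05, with *R3hdm2* the largest at 0.85 (SE 0.39). Of the 14 pluripotency and germ line genes, 9 were well above background on all 6 arrays, among them *Nanog* and *Pou5f1*, and *Sox2*, *Ddx4*, and *Dazl* were so on none. Of the 17 motile cilium genes on the array, 15 were well above background on all 6, *Foxj1* among them, and *Dnah5* on none. Over the whole array, 15884 of the 20630 gene symbols were so on all 6 by their brightest tested probe. Nothing about these lists is read from their detection.

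The genes next to the members on the chromosome were read from the RefSeq annotation, by name only. Of the 20 flanking genes tested, differences ranged from −2.61 to 1.46 with a median of −0.12, 18 lay within 1 log2 unit of 0, and none passed limma's adjusted p. They included *Senp7* and *Abi3bp* beside *Impg2* (−0.28 and 0.33), *Cmtr2* and *Vac14* beside *Hydin* (0.37 and −0.30), and *Zmynd19* and *Mrpl41* beside *Dph7* (0.11 and −0.03). The exceptions to the 1-unit limit were *Agpat1* and *Nectin3*. *Agpat1*, an ER enzyme of phosphatidic acid synthesis that lies beside *Rnf5*, read 10.99, 11.06, and 9.28 in control 1 to 3 and 8.18, 7.47, and 7.83 in *ob/ob* 1 to 3. Its difference was −2.61 (SE 0.57, adjusted p of 1.0 in limma). It was the 1 flanking gene of 20 without overlap, against 4.19% of all probes in the lower and 3.74% in the higher direction. Nothing is read from that count. *Nectin3*, a cell adhesion gene beside *Dppa4*, differed by 1.46 (SE 0.59) with overlapping groups. *Dppa2*, the partner of *Dppa4* and its other neighbor, read 4.64, 4.48, and 5.17 in controls and 5.04, 5.19, and 3.68 in *ob/ob* samples, a difference of −0.13. The genes that overlap a member on the chromosome, *Plcd3* at *Acbd4* and *Dvl1* at *Tas1r3*, had differences of −1.07 and −1.39, and their control and *ob/ob* values overlapped.

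The profile of the brown adipocyte markers was set beside that of *Aspg*. The median log2 signal of the 10 markers was 9.63, 9.67, and 7.85 in control 1 to 3 and 7.65, 7.60, and 7.33 in *ob/ob* 1 to 3, so that control 3 was low for both. A low control 3 was not particular to these markers. Medians were also lower there for endothelial markers (6.29, against 8.41 and 8.14 in control 1 and 2), erythrocyte markers (7.56, against 8.77 and 9.25), and the muscle markers below. The macrophage median was not (6.38, against 5.99 and 5.91). Of the 10 markers, 2 passed the unadjusted p and 2-fold rule, both lower, against 1.5% lower over all genes. They were *Ppargc1a*, a coactivator of mitochondrial genes (−2.91, SE 0.87), and *Elovl3* (−4.51, SE 1.06, detected on 3 arrays). *Dio2*, *Kcnk3*, and *Ebf2* differed by −0.16, 0.09, and 1.15. None of the 10 passed limma's adjusted p. The median of the skeletal muscle markers was 9.98, 10.26, and 7.44 in controls and 5.93, 5.88, and 12.49 in *ob/ob* samples. A high *ob/ob* 3 was not particular to muscle markers. Its medians were also the highest of all arrays for macrophage markers (7.42) and the ER-associated degradation list (8.49). A low *ob/ob* 3 was not particular to *Tas1r3* either. Its medians were the lowest of all arrays for brown adipocyte markers (7.33), taste signaling genes (5.78), and motile cilium genes (5.62). The part of tissue composition in the differences of the 10 genes was not tested.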

How the data were processed

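Values came from 6 single-color arrays, 3 per group, grouped by the genotype in the sample labels. For each array the authors deposited spot intensities from Agilent Feature Extraction (version 11.0.1.1, per the submitters' processing notes), already corrected for background within the array, with detection flags, and a table of log2 values quantile normalized in GeneSpring. The log2 of the deposited intensities was averaged per probe and quantile normalized. Probes with an outlier flag on all spots of an array (104 of 39429) were left out. RefSeq accessions were named through the annotation of GRCm38.p6. The array's own coordinates are of another build and are not given. The 35448 probes well above background on at least 3 of 6 arrays were fitted in limma (version 3.58.1, R version 4.3.3), with Benjamini-Hochberg adjusted p and a threshold of 0.05. Single genes outside the members are given by their brightest detected probe. With no counts, the number of arrays limits precision. Where samples are not separate animals, p values measure only the spread between these samples.

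The members and gene lists were chosen with earlier results of these data known. Named genes are the members, the list genes past the unadjusted p and 2-fold rule or with the largest difference in their list, chromosomal neighbors, and the gene most like each member. *Ppargc1a*, *Elovl3*, *Dio2*, *Kcnk3*, *Ebf2*, *Ucp1*, *Itgam*, and the list genes named for their detection were named after their values were seen. Alternatives were the 75th percentile scaling, normexp (offset 50), the authors' normalized log2 values, other detection filters, the methods' t-test, an intensity trend with robust estimation, the replicate number or scan as a block, the mean of a gene's probes, and leaving out each array. Leaving out control 3 and *ob/ob* 3 together was added after seeing the data. The code was tested on simulated data. Python (version 3.11.15) with numpy (2.4.6) and pandas (2.3.3) made the tables, and matplotlib (3.10.9) the figures.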

Additional observations from a re-analysis of the deposited data

How the results depend on the processing

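No probe passed the adjusted p in limma under any alternative except the intensity trend with robust estimation, where 1 did, the *Impg2* probe, which had been selected on this contrast. The number of probes with an unadjusted p below the threshold and a 2-fold difference, 1076 with the settings used in the report, was 451 with 75th percentile scaling, 438 with normexp, 640 with the methods' t-test, and 148 with the scan as a block, and ranged from 285 (without control 2) to 2932 (without control 3) when 1 array was left out. It was 564 without control 1, 647 without *ob/ob* 1, 708 without *ob/ob* 2, and 2714 without *ob/ob* 3. With the replicate block it was 359. Deviations of same-numbered samples correlated at −0.78, −0.66, and −0.85, so the numbers do not pair the samples. The replicate block left the related lists at 2 genes, which were 1 with 75th percentile scaling, the methods' t-test, or trend and robust estimation, 0 with the scan block, and 1 to 6 when 1 array was left out (6 without control 3 or without *ob/ob* 3). Member probes without overlap, 10 as reported, numbered 9 with 75th percentile scaling (*Szrd1* overlapped), 11 with normexp, 12 within the shared scan, 10 to 12 with 1 array left out, and 13 without control 3 and *ob/ob* 3. Of 181 values of the member probes under the alternatives, 156 lay within 1 SD of the reported one, 25 moved further, and 12 had another sign, all on probes beside the separating ones or the mean of the *Commd8* probes, and 0 on separating probes. With arrays left out and within the shared scan, the kept signs of the separating probes follow from their selection. So does a count there of at least 10 probes without overlap. With 1 array left out, the *Aspg* difference ranged from −4.87 to −3.13, that of *Tas1r3* from −4.24 to −2.60, and that of *Szrd1* from 1.99 to 3.75. Dim signal limits *Impg2* in *ob/ob* samples, *Commd8* in controls, and the second *Dph7* probe on all arrays. Where a value moved, the cause was not tested.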

Other observations

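The 3 other probes among the 10 of lowest unadjusted p were an unnamed probe, *Gm10731*, and 1 of the 7 probes of *Gapdh*, a glycolytic enzyme widely used as a reference gene. They were looked at after their values were seen. The *Gapdh* probe read 12.99, 13.57, and 12.52 in control 1 to 3 and 9.87, 10.11, and 10.09 in *ob/ob* 1 to 3, a difference of −3.0. All 7 *Gapdh* probes had a lower mean in *ob/ob* samples, from −3.0 to −0.37. On 2 of them the groups did not overlap, against 4.19% of all probes in that direction. The probe above, picked for its low p, is 1 of these 2. The probe with the smallest difference came at rank 16873 of 35448 by unadjusted p in limma. None had an adjusted p below the threshold in limma.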
